A study of Mus musculus with 6 samples.

Results

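The genes described here carry fatty acids into the hepatocyte, bind them in the cytosol and attach them to coenzyme A. They were taken as a fixed list of 10 gene symbols: Cd36, Slc27a1, Slc27a2 and Slc27a4 (uptake at the membrane), Fabp1, Fabp2 and Fabp4 (binding in the cytosol), Acsl1 (activation), and Lpl and Vldlr (release from and uptake of lipoproteins). The array names 24239 genes, and all 10 members are on it with 13 of its 55681 probes that are not controls. Probes count as detected here if the scanner software rated them well above background in each of the 3 mice of one group or the other. By this rule 13284 genes were detected, all 10 members among them, with 12 of their 13 probes, each of these rated well above background on all 6 arrays. The list goes by gene symbol and by no measured value, but it was drawn up with earlier results of these data known.

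Liver RNA came from male B6C3F1 mice, a first-generation hybrid of the C57BL/6 and C3H strains, 7 weeks of age. In one group 3 mice received trichloroethylene (TCE), a chlorinated solvent, by gavage in corn oil for 5 days, at a daily dose of 1000 mg/kg b.w., and in the other group 3 control mice received the corn oil vehicle. Corn oil is itself made of fatty acid esters and was given to both groups. Each mouse had an array of its own with 1 dye. Mice are numbered by the replicate number in their labels, and since the deposited scanner files are numbered differently from the sample titles, an array was tied to its mouse by the record of the deposit. A mix-up of numbers within a group would not change the comparison of the groups.

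Long-chain fatty acids reach the liver bound to albumin or inside lipoproteins, and enter the cell through membrane proteins such as the scavenger receptor CD36 and the fatty acid transport proteins of the SLC27 family. Inside, fatty acid binding proteins keep them in solution and acyl-CoA synthetases trap them as acyl-CoA, the form used for oxidation and for triglyceride synthesis. Several of these genes are textbook targets of PPARα, a nuclear receptor for fatty acids that binds a direct repeat of the hexamer AGGTCA spaced by a single base (DR1).

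The signal was well above background for 23537 to 24965 probes per array, 123 to 189 outlier spots per array were left out, and 0 spots were saturated. Pearson's r across detected probes, which are not independent replicates, ranged from 0.987 to 0.990 within the control group, from 0.978 to 0.987 within the TCE group and from 0.971 to 0.982 across groups. The arrays came from 2 slides, the first of which held control mouse 1 and the second the other 5 mice, and each slide was scanned once. A gene counted as higher or lower in TCE mice when its brightest detected probe had a limma adjusted p of 0.05 or less, over all 22731 detected probes, and a fold change of 2 or more. Signals below are quantile-normalized log2 values, and differences between groups are on the same log2 scale. The small number of arrays limits the precision of every value. Levels of different probes are not comparable with each other, so each gene is compared only with itself across mice.

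Cd36 and Vldlr rose in TCE mice, by 7.80-fold and 4.49-fold. Fabp4 was 1.96-fold higher, just under the fold limit, and none of the other members passed either criterion. Thus 2 of the 10 members were higher past the threshold, where 1.3% of all detected genes were, and 0 were lower, where 0.429% were. At an unadjusted limma p under 0.05 the counts were 6 higher and 0 lower, against 12% and 7.11% of all genes, and the methods' t-test without adjustment also gave 0 lower at a fold change of 2 or more. The median change of the 10 members was 0.45, and that of all 13284 genes was 0.02. In 7 members every TCE mouse lay above every control mouse, and in 0 members below. Among all genes 17.1% had such a separation upward and 10.8% downward.

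**Figure D1:**
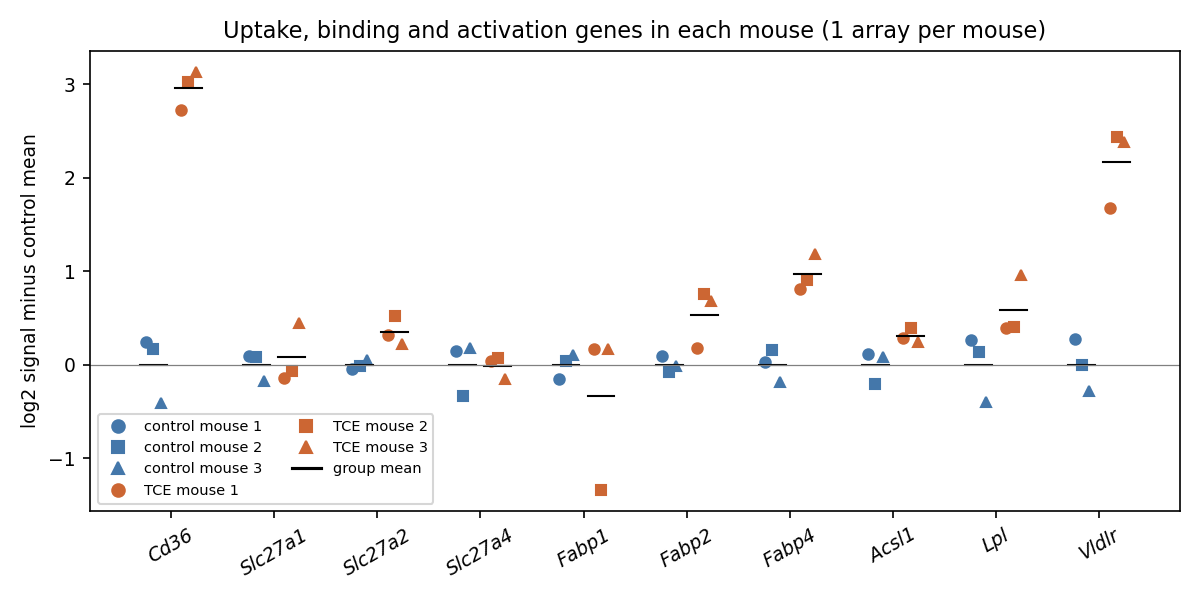
Signal of the 10 genes in each mouse, as log2 signal of its brightest detected probe minus the mean of the control mice, with 1 symbol per mouse (3 control, 3 TCE) and short black lines at the group means. The TCE mice stand 2.49 or more above the highest control mouse for Cd36 and 1.40 or more for Vldlr, while TCE mouse 2 stands alone below all others for Fabp1.

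Among the uptake proteins of the membrane, Cd36 had the largest change of all members. CD36 is a scavenger receptor that binds long-chain fatty acids and oxidized lipoproteins. The Cd36 probe lies on the minus strand at chr5:17288600-17288659 (mm9). Its log2 signal was 7.23, 7.16 and 6.58 in control mice 1, 2 and 3, and 9.72, 10.01 and 10.13 in TCE mice 1, 2 and 3. The groups were far apart, with a gap of 2.49 between the lowest TCE mouse and the highest control mouse. The difference was 2.96 ± 0.21 (SE), which is 7.80-fold (95% confidence interval 5.45 to 11.2, limma adjusted p = 0.00301, n = 3 per group). On the second slide alone, that is without control mouse 1, the difference was 3.10 (limma adjusted p = 0.0159). Background correction by normexp, an alternative that compresses low signals, gave a fold change of 5.28.

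The probe and the region before the annotated start of Cd36 are shown because this gene changed most. The first 30 of 60 bases of the probe, in lower case throughout, and the 250 bases before a RefSeq transcript start of Cd36 (GRCm38.p6, chr5:17835897-17836146, minus strand) read 5′ to 3′ as follows, with the 13 bases closest to a DR1 in capitals.
Cd36 probe: aagaatgaaaaatgaacaattcacatgtga
Cd36 upstream region: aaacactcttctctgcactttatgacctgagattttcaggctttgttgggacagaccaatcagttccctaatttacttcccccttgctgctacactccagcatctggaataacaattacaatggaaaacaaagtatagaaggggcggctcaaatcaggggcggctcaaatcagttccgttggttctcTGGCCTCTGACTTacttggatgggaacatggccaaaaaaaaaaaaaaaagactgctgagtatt

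The capitals span bases -63 to -51 from the start and, on the opposite strand, match AGGTCANAGGTCA with 2 mismatches in its 12 fixed letters. RefSeq lists other Cd36 transcripts that start further upstream, and their starts have no window here. On both strands and with up to 2 mismatches, 3.24% of 32851 windows of the same length hold this pattern. It is a match of letters, and binding was not measured in these mice.

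None of the 3 fatty acid transport protein genes on the list passed the threshold. They combine transport with acyl-CoA synthetase activity, and SLC27A2 (FATP2) is a form typical of liver. For Slc27a2 (chr2:126413890-126413949, mm9) the log2 signal was 16.79, 16.83 and 16.89 in control mice and 17.16, 17.36 and 17.06 in TCE mice. The groups did not overlap, but the difference of 0.35 ± 0.12 did not pass the threshold (limma adjusted p = 0.214), and with scaling to the 75th percentile the highest control and the lowest TCE value met at 9.13. Slc27a1 (chr8:74110256-74110315, mm9), whose product serves insulin-responsive uptake in muscle and fat, had signals of 9.03, 9.02 and 8.76 in control mice and 8.79, 8.87 and 9.39 in TCE mice. Here the groups overlapped, with TCE mouse 3 alone above the control mice, and the difference was 0.08 ± 0.19 (limma adjusted p = 0.865, 95% confidence interval -0.38 to 0.54). Slc27a4 (chr2:29672983-29673042, mm9) also overlapped, with 7.01, 6.53 and 7.04 in control mice, 6.90, 6.93 and 6.71 in TCE mice, and a difference of -0.01 ± 0.17 (limma adjusted p = 0.980, 95% confidence interval -0.43 to 0.41). The sign for Slc27a1 turned to -0.07 with normexp, and that for Slc27a4 turned to 0.06 with the slide as a block, so neither has a direction.

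FABP4, the binding protein best known from adipocytes and macrophages, had log2 signals of 9.92, 10.05 and 9.71 in control mice and 10.70, 10.80 and 11.08 in TCE mice at chr3:10204452-10204511 (minus strand, mm9). All TCE mice lay above all control mice, and the difference of 0.97 ± 0.16 passed the adjusted p (limma, 0.0382) with a fold change of 1.96. At any fold change 3 members passed the adjusted p upward, against 1.8% of all genes, and 0 downward, against 0.587%. With scaling to the 75th percentile the fold change of Fabp4 was 2.04 (limma adjusted p = 0.0334), past the threshold. Leaving out any 1 mouse raised its adjusted p to between 0.0858 and 0.123.

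Fabp2, named for the intestine where it is abundant, was at chr3:122602276-122602335 (mm9) with log2 signals of 14.76, 14.59 and 14.65 in control mice. The TCE mice had 14.85, 15.43 and 15.35, so that TCE mice 2 and 3 were clearly higher and TCE mouse 1 lay 0.08 above the highest control mouse. The difference of 0.54 ± 0.18 did not pass (limma adjusted p = 0.198).

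Fabp1 encodes the main fatty acid binding protein of hepatocytes, and its probe (chr6:71154906-71154965, mm9) was among the brightest of each array. Its log2 signal was 17.77, 17.96 and 18.03 in control mice and 18.08, 16.58 and 18.08 in TCE mice. The groups overlapped, because TCE mouse 2 was below every other mouse while TCE mice 1 and 3 were above the control mice. The difference was -0.34 ± 0.41 (limma adjusted p = 0.713), and without TCE mouse 2 it was 0.16 (limma adjusted p = 0.569). The probe ranked 30 to 53 from the top of the array in 5 mice and 288 in TCE mouse 2. Near the top of the array quantile normalization gives every array the same value at a given rank, so that TCE mice 1 and 3, both at rank 30, have the same signal.

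The scanner output for the Fabp1 spot also set TCE mouse 2 apart. Before normalization its processed intensity was 85834, against 226702 to 317705 on the other arrays. The SD of the pixels within the spot was 18.7% of their mean in TCE mouse 2, and 1.59% to 2.51% in the other 5 mice. Of the 1000 brightest spots on the array of TCE mouse 2, 5 had a value as high or higher, and the median was 5.94%. The spot carried no outlier flag. Of the 8 hepatocyte markers, 3 were also lowest among TCE mice in TCE mouse 2, namely Ahsg (18.00 against 18.46 and 18.55), Cps1 (13.42 against 14.01 and 14.02) and Tat (15.29 against 15.46 and 15.68), and the other 5, Alb and Ttr among them, were not. In this mouse Ahsg and Cps1 were also below every control mouse, but Tat was above them (15.17, 15.17 and 15.01). Whether the uneven spot accounts for the low Fabp1 signal was not tested.

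**Figure D2:**
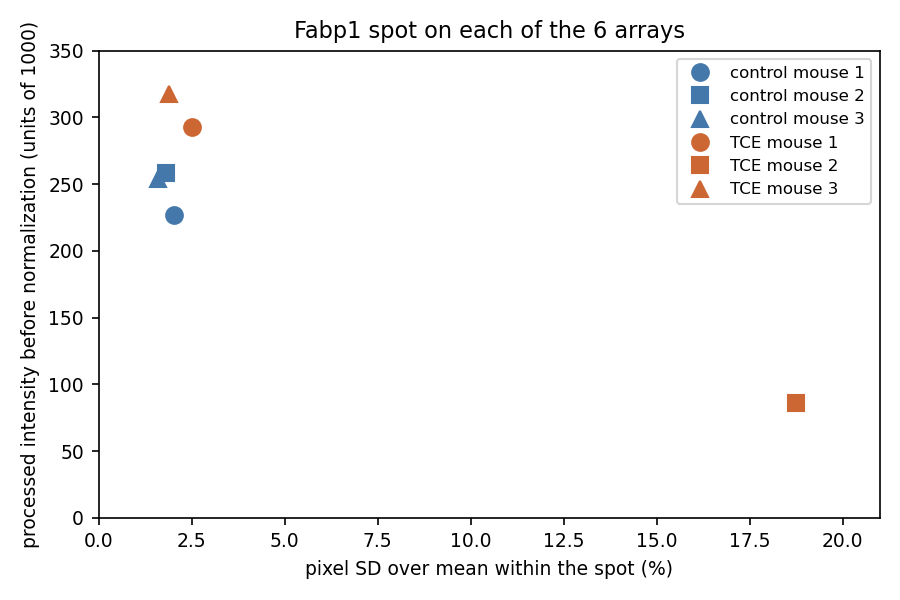
Processed intensity of the Fabp1 spot before normalization (in units of 1000) against the SD of its pixels as a percent of their mean, 1 point per array. The array of TCE mouse 2 stands apart at 18.7% with the lowest intensity, and the other 5 arrays lie between 1.59% and 2.51%.

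The region before the Fabp1 start is shown beside that of Cd36 because these are the only 2 members with a DR1 match. It lies at chr6:71199629-71199878 (GRCm38.p6, plus strand, RefSeq), with the DR1 match in capitals.
Fabp1 upstream region: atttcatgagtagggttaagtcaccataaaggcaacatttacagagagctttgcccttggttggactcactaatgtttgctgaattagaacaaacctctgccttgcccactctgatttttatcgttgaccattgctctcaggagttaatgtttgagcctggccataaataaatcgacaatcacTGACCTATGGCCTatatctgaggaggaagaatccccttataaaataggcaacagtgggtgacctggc

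The Fabp1 match spans bases -67 to -55 and has 1 mismatch. RefSeq windows were present for 8 of the 10 members, 12 windows in all, and the other 6 of these members had no DR1 match. A single AGGTCA on either strand, which 14.0% of all windows hold, was found for 3 members: Cd36, Fabp1 (where 1 of its copies lies within the DR1 match) and Slc27a2.

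For related members, the change of one gene minus that of another was taken within each mouse and compared between groups, which leaves levels of different probes out of the comparison. With 3 against 3 mice an exact permutation test (two-sided) cannot give a p below 0.1. Fabp1 minus Fabp4 was -0.18, -0.11 and 0.29 in control mice relative to their mean and -0.64, -2.25 and -1.03 in TCE mice, without overlap. The mean difference was -1.31 (exact permutation p = 0.1, 0.3 after adjustment over 6 pairs), and -0.84 without TCE mouse 2. In the other 5 pairs the groups overlapped, with differences from -0.87 (Fabp1 minus Fabp2) to 0.37 (Slc27a2 minus Slc27a4) and exact permutation p values of 0.2 to 0.7. Thus a difference between relatives in their change was not shown past the threshold in any of the 6 pairs.

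Acsl1 encodes the long-chain acyl-CoA synthetase that dominates in liver, and 2 probes measured it. The brighter probe (A_51_P496432, chr8:47621232-47621291, mm9) gave 16.42, 16.09 and 16.39 in control mice and 16.59, 16.69 and 16.55 in TCE mice. The other (A_51_P463452, chr8:47619774-47619833, mm9) gave 13.25, 12.90 and 13.26 in control mice and 13.59, 13.82 and 13.47 in TCE mice. Both separated the groups upward, with TCE mouse 2 highest and control mouse 2 lowest. The differences of 0.31 ± 0.13 (limma adjusted p = 0.293) and 0.49 ± 0.16 (limma adjusted p = 0.182) did not pass the threshold.

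Lpl encodes lipoprotein lipase, which releases fatty acids from circulating triglycerides and is normally low in adult hepatocytes. Its brighter probe (A_51_P259296, chr8:71430267-71430326, mm9) gave 11.56, 11.43 and 10.90 in control mice and 11.69, 11.71 and 12.25 in TCE mice. The second probe (A_52_P257812, chr8:71425050-71425109, mm9) gave 8.57, 8.56 and 7.94 in control mice and 8.62, 8.80 and 9.35 in TCE mice. On both probes control mouse 3 was lowest and TCE mouse 3 highest, while the remaining mice of both groups lay close together. The differences were 0.59 ± 0.24 (limma adjusted p = 0.270) and 0.56 ± 0.26 (limma adjusted p = 0.321), neither past the threshold.

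The VLDL receptor takes up triglyceride-rich lipoproteins and is normally scarce in liver. Its detected probe (A_55_P2030524, chr19:27324050-27324109, mm9) gave 5.99, 5.71 and 5.43 in control mice and 7.39, 8.16 and 8.10 in TCE mice. The lowest TCE mouse was 1.40 above the highest control mouse. The difference of 2.17 ± 0.25 was 4.49-fold (95% confidence interval 2.95 to 6.85, limma adjusted p = 0.0155). It was 2.31 without control mouse 1 (limma adjusted p = 0.0474) and 2.41 without TCE mouse 1 (limma adjusted p = 0.0152). The adjusted p rose above the threshold without control mouse 2 (0.0812), control mouse 3 (0.0670), TCE mouse 2 (0.0520) or TCE mouse 3 (0.0537), where the limma difference was still 2.02 to 2.17. With normexp the fold change was 2.65 (limma adjusted p = 0.0169).

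The other Vldlr probe (A_55_P2174836, chr19:27321104-27321163, mm9) stayed at background level in all 6 mice and gives no fold change. Its log2 values were 2.48, 3.26 and 3.09 in control mice and 3.98, 3.63 and 4.72 in TCE mice. The array annotation assigns the detected probe to 2 RefSeq transcripts of Vldlr and the undetected probe to 1. The first 30 of 60 bases of both are shown because they disagree in signal. The 250 bases before the first RefSeq start (GRCm38.p6, chr19:27216234-27216483, plus strand) are shown because Vldlr was the other member past the threshold. This window holds neither a DR1 match nor a single AGGTCA, but only 3.24% and 14.0% of all windows hold these, and binding was not measured.
Vldlr probe A_55_P2030524: ctttttcaatggttgggacaatggcaatag
Vldlr probe A_55_P2174836: acagtgagacaaaagatatcaacacaacag
Vldlr upstream region: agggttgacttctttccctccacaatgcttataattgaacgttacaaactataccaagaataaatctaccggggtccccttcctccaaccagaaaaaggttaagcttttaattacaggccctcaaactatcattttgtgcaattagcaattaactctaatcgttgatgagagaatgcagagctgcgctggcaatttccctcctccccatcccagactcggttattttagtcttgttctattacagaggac

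**Figure D3:**
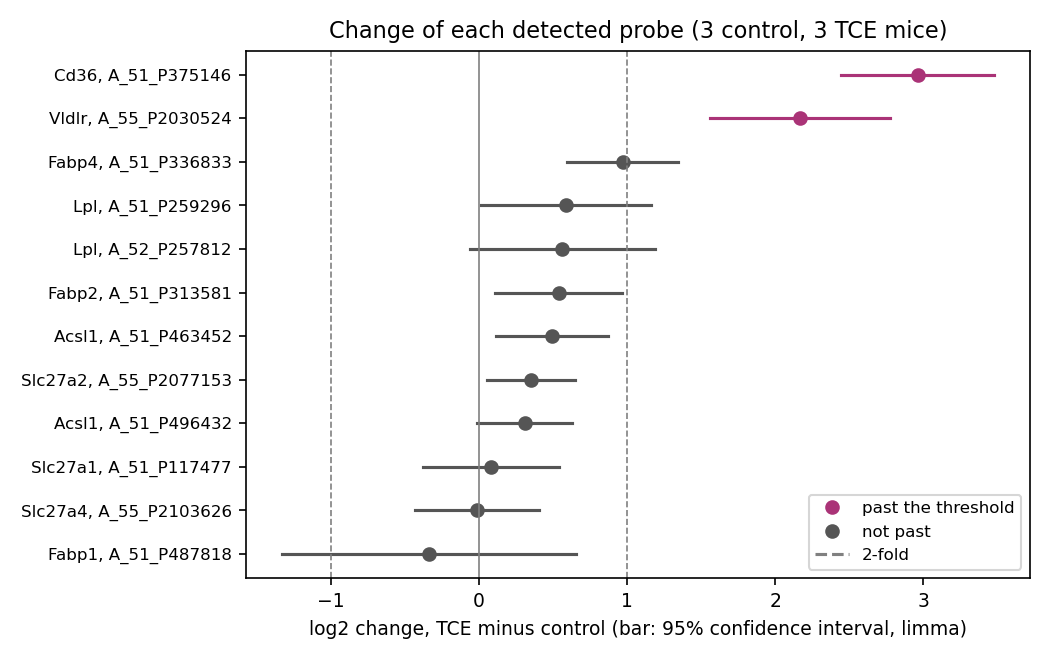
Log2 change (TCE minus control) of the 12 detected probes, with 95% confidence intervals from limma, and dashed lines at a 2-fold change. The intervals of Cd36 and Vldlr lie wholly above the upper 2-fold line, those of Fabp4 and of both Lpl probes span it, and that of Fabp1 spans the lower line. The intervals of Slc27a1, Slc27a4, Fabp1, 1 Acsl1 probe and 1 Lpl probe include 0.

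The members did not rank the mice in the same order. TCE mouse 3 had the highest TCE signal for Cd36, Fabp4, Slc27a1 and Lpl, and TCE mouse 2 for Fabp2, Slc27a2, Slc27a4, Acsl1 and Vldlr. TCE mouse 1 had the lowest TCE signal for 6 members, Cd36, Fabp2, Fabp4, Slc27a1, Lpl and Vldlr. Control mouse 3 had the lowest control signal for Cd36, Fabp4, Slc27a1, Lpl and Vldlr. These are orders within groups of 3 and carry no test.

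Since Fabp4, Lpl and Cd36 are also expressed by adipocytes, macrophages and endothelial cells, and Fabp2 by enterocytes, markers of those cells were read beside them. In bulk liver RNA, more cells of a type and more RNA per cell cannot be told apart. None of 6 adipocyte markers was detected, with Adipoq, Plin1, Lep and Cidea well above background on 0 of 6 arrays. Cfd and 1 probe of Retn were well above background on 1 array each. All 8 macrophage markers on the array were detected and none passed the threshold. The log2 of their summed signals was 14.57 to 14.76 in control mice and 14.50 to 14.83 in TCE mice. Such a sum is set mostly by the brightest probes. The median change was -0.10, with 7 of the 8 changes negative and 1 positive, beside 6226 negative changes among all 13284 genes. Likewise 8 of 8 endothelial markers were detected and none passed. Their log2 sums were 14.53 to 14.56 in control mice and 13.71 to 14.64 in TCE mice, with a median change of -0.20. Each of the 8 changes was negative, and 1 marker, Stab2, was separated downward, beside 10.8% of all genes. Clec4g, the brightest of them, was 13.61, 13.38 and 13.42 in control mice. It was 12.46 in TCE mouse 1, and 13.84 and 13.53 in TCE mice 2 and 3. Of 5 enterocyte markers on the array Vil1 alone was detected, well above background in the 3 control mice and in 0 TCE mice. It was lower in TCE mice by at least 1.47-fold when the TCE signal is set at the detection limit, which is under the fold limit of 2. Of 7 striated muscle markers Myh6 alone was detected, again in the 3 control mice and in 0 TCE mice, and it was lower by at least 2.26-fold. The other Myh6 probe (A_55_P2173952) was well above background on 0 arrays. Vil1 and Myh6 passed the detection filter only through the control group, where they are high. Their calls as lower (limma adjusted p = 0.0419 and 0.0413) are therefore not independent of the filter, and no result is drawn from them. All 8 hepatocyte markers were detected and none passed, with sums of 20.65 to 20.74 in control mice and 20.56 to 20.71 in TCE mice. The part of these cell types in the changes of Cd36, Fabp4, Lpl and Fabp2 was not tested beyond these values.

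Beyond the members, 48 further gene symbols of uptake, binding and activation were listed, of which 47 are in the array annotation and 36 were detected. Of the 36, 1 was higher past the threshold, 1 was lower, and 34 did not pass. Over all 36 the changes ranged from -1.62 (Acsm2) to 1.83 (Acss3), with a median of 0.10. Angptl4, a secreted inhibitor of lipoprotein lipase, had log2 signals of 15.19, 15.34 and 15.27 in control mice and 16.24, 16.49 and 16.18 in TCE mice. It rose by 1.04 ± 0.13, or 2.05-fold (limma adjusted p = 0.0191). Acsm2, a medium-chain acyl-CoA synthetase, had 7.07, 7.58 and 7.52 in control mice and 6.24, 5.66 and 5.42 in TCE mice. It fell by 1.62 ± 0.25 on the log2 scale (limma adjusted p = 0.0359). Neither set of groups overlapped, but each call was lost in 5 of the 6 fits that left out 1 mouse, with limma adjusted p up to 0.0889 for Angptl4 and 0.145 for Acsm2. The call of Angptl4 held only without TCE mouse 3 and that of Acsm2 only without TCE mouse 1.

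At any fold change 4 of the 36 genes passed the adjusted p upward and 3 downward, beside 1.8% and 0.587% of all genes, and the genes below the fold limit that are named next were chosen after their values were seen. Pnpla2 (0.93) and Mgll (0.90), which encode intracellular lipases that release fatty acids from stored triglyceride, and Acsl5 (0.70), a long-chain acyl-CoA synthetase, were higher. Fabp7 (-0.72), a binding protein best known from brain, was lower. The limma adjusted p of these genes was 0.0285, 0.0372, 0.0306 and 0.0444 in this order. Acss3, an acetyl-CoA synthetase family member and the gene with the largest upward change of the 36, was 3.56-fold higher without passing (limma adjusted p = 0.0664). The groups did not overlap in 20 of the 36 genes, 13 upward and 7 downward, where 17.1% and 10.8% of all genes were separated in these directions. Acss3 and Acss1 are among the 13, but each was well above background in only 2 control mice and in 3 TCE mice. They thus passed the detection filter only through the TCE group, where they are high.

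**Figure D4:**
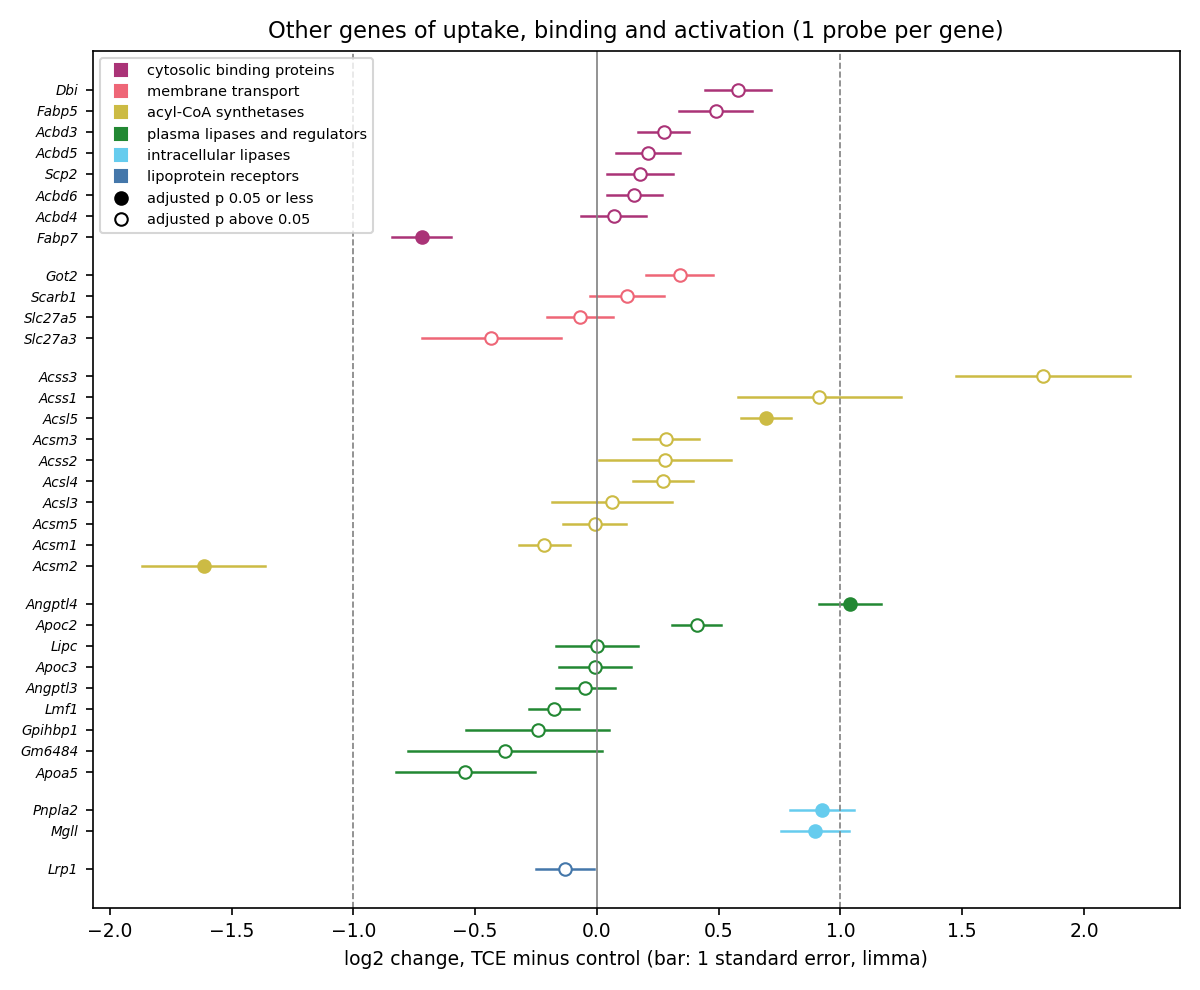
Log2 change (TCE minus control) of 34 of the 36 detected genes of the wider list, grouped by role, with bars of 1 standard error from limma, filled points for genes that passed the adjusted p and dashed lines at a 2-fold change. Angptl4 and Acsm2 alone are filled beyond the dashed lines, and Acss3 is farthest right with an open point.

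Among the acyl-CoA synthetases of the list 1 of 10, Acsm2, fell past the threshold and 0 rose, beside 0.429% and 1.3% of all genes. The groups were separated upward in 5 of them, Acss1 and Acss3 included, and downward in 2, beside 17.1% and 10.8% of all genes. Their median change was 0.27, beside 0.31 for the brighter Acsl1 probe. The 8 binding proteins of the list had a median change of 0.19, with 3 separated upward and 1 downward, beside 17.1% and 10.8% of all genes.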

How the data were processed

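Liver RNA of 3 control and 3 TCE mice was measured on 1-colour Agilent 8x60K arrays, with no pooling. The authors scanned the arrays and ran Feature Extraction 10.7.1.1, and the deposited scanner files hold a background-subtracted, trend-corrected intensity for each of 62976 spots. The authors also deposited a table of quantile-normalized log2 group means and intensity means, used only as an alternative. Probe positions are on mm9.

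From these files, control spots were left out and outlier spots were set to missing. Log2 intensities, with no pseudocount, were averaged per probe and quantile normalized over 55681 probes. The resulting group means lay within 0.01 of the deposited log2 means for 99.95% of the probes, so that the values follow the scale of the authors. The 22731 detected probes entered a two-sided limma fit (limma 3.58.1, R 4.3.3, lmFit and eBayes) whose sole factor was the group, and p values were adjusted over these probes by Benjamini-Hochberg. Tables were handled with version 1.17.8 of data.table. The brightest detected probe, by its mean over the 6 arrays, stood for a gene. The procedure was tested on simulated data.

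All probes of the 10 members were described. Of 48 further gene symbols, those past the threshold were named. Counts cover all of them, and 2 are not reported here by name or in the plot. The members, the gene and marker lists, the roles and the motifs were chosen with earlier results of these data known. Alternatives were other scaling, background correction, filters, tests, blocks for replicate number and slide, and each mouse left out. For the pairs of relatives, leaving out each mouse was added after the data were seen. Each array is a separate mouse, so p values rest on a spread that holds differences between mice and between arrays, which cannot be told apart. The limma p values also pool this spread in part over all detected probes. Protein sequences, other doses, qPCR and methylation were not analysed here. Upstream regions come from RefSeq on GRCm38.p6, a build other than that of the probes, and positions were not converted. Figures were drawn with matplotlib 3.10.9.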

Additional observations from a re-analysis of the deposited data

How the results depend on the processing

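Over 18 other settings and subsets of mice, the change of Cd36 kept its direction and ranged from 2.40 to 3.10 on the log2 scale, and its call was lost with the replicate number as a block and with the methods' t-test after adjustment. The change of Vldlr kept its direction (1.41 to 2.41) and lost its call in 7 of 18. The count of higher members, 2, was 1 without the filter on dim probes, 0 by the methods' t-test after adjustment (Cd36 adjusted p = 0.0556, Vldlr 0.0943, where 2 passed at an unadjusted p and limma gave 6 at an unadjusted p under 0.05), and 1 to 2 with each mouse left out. The count of lower members was 0 throughout. Among the 36 further genes the 1 higher and the 1 lower gene were both 0 with normexp, without the dim filter, by the methods' t-test after adjustment and with the slide as a block, and were 4 and 3 with no minimum fold change. Without adjustment the methods' t-test gave 2 higher, and leaving out each mouse gave 0 to 1 in either direction. Over all genes the 173 higher and 57 lower became 55 and 11 without the dim filter, 17 and 3 by the adjusted t-test, and 106 and 22 with the slide block.

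No pairing of mice by replicate number was seen: the correlations of same-numbered deviations were 0.09, 0.01 and -0.09. Of the control mice only mouse 1 correlated best with the TCE mouse of its own number. With 3 mice per group, whose deviations add up to 0, these values cannot decide whether the numbers pair the mice. With the replicate block 0 members and 0 of the 36 further genes passed (Cd36 limma adjusted p = 0.0594, Vldlr 0.113), and over all genes 40 were higher and 5 lower.

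Signs turned for 3 members and 1 pair, none past the threshold. Slc27a1 was -0.065 with normexp and ranged from -0.11 to 0.19 with each mouse left out, Slc27a4 was 0.063 with the slide block and ranged from -0.18 to 0.079, and Fabp1 ranged from -0.59 to 0.16, turning without TCE mouse 2. Slc27a1 minus Slc27a4 turned from 0.093 to -0.064 with normexp and ranged from -0.16 to 0.30 with each mouse left out. Where leaving out a mouse or a block took a call away, the cause was not tested. Among the called members the fold change of the dim Vldlr probe moved most with the background correction.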
